A study of Arabidopsis thaliana with 3 samples.

Results

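The 8 ferric reductase oxidase genes of Arabidopsis thaliana, FRO1 to FRO8, were examined for binding of SOB3, an AT-hook protein that represses growth. They were taken by locus identifier and are 8 of the 27444 protein-coding genes on chromosomes 1 to 5. A gene took every peak with its summit inside the span or up to 1000 bp outside it. The family was chosen by these peak positions and folds, known from earlier work on the same lists, so its peak values are a description without a test. The study mapped SOB3 in juvenile rosettes by ChIP-seq, in which chromatin fragments held by a protein are precipitated and sequenced. The plants were Columbia (Col-0) of genotype ProSOB3::SOB3-GFP sob3-4, in which SOB3 fused to GFP is driven by its own promoter in the sob3-4 mutant background. Whole plants were taken at an age of 14 days and at ZT4, that is 4 h after lights-on, after growth at 22 °C with 16 h of light and 8 h of darkness. The 2 SOB3-GFP ChIP replicates were precipitated with an anti-GFP antibody, and 1 SOB3-GFP Input library of the same genotype, age and time had no antibody. Separate plantings are not stated in the labels for the replicates, and their spread may be technical. The tissue is named both as rosettes and as whole plants, so whether roots were included is unclear. A peak cannot be assigned to an organ, and no precipitation from plants without the fusion was analysed here.

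FRO proteins are membrane flavocytochromes related to NADPH oxidases. They pass electrons from NADPH inside the cell or organelle across a membrane and reduce ferric iron or cupric copper to the forms that transporters accept. In dicot plants this reduction precedes iron uptake at the root surface, and further members act in leaves, chloroplasts and mitochondria.

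SOB3-GFP peaks lay at 6 of the 8 FRO loci, and at 4 of them in both replicates. FRO1 (AT1G01590), FRO2 (AT1G01580), FRO4 (AT5G23980) and FRO6 (AT5G49730) had a shared region, defined as peaks of both lists that overlap by at least 1 bp. FRO3 (AT1G23020) and FRO7 (AT5G49740) had peaks in replicate 1 only. FRO5 (AT5G23990) and FRO8 (AT5G50160) had none within reach. FRO6 had the most peaks of the family and the highest fold enrichment, which is the authors' ratio of summit pileup over control.

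The same assignment gave a shared region to 11.5% of all protein-coding genes, a replicate 1 peak to 28.7% and a replicate 2 peak to 13.7%. A replicate 1 peak without a shared region lay at 17.2% of all genes, and 69.3% had no peak in either list. Of the FRO genes, 4 had a replicate 2 peak and 6 a replicate 1 peak. Nothing is read from these shares, because the family was chosen with its peaks known. FRO genes also have spans of 3084 to 4088 bp, against a median of 2078 bp for all protein-coding genes. Whether span length bears on the shares was not tested. At FRO1, FRO2 and FRO4 the summits of the shared regions lay in the flanks, not inside the span. The count of FRO loci with a shared region depended on the width of the flanks and on peak strength. So did the share of all genes. With flanks of 250 bp, 2 FRO loci and 5.65% of all protein-coding genes had a shared region. When peaks had to reach a −log10 q of 10, 1 FRO locus and 1.85% of all genes had one. With the top 1000 peaks of each list the values were 1 FRO locus and 0.98% of all genes.

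**Figure D1:**
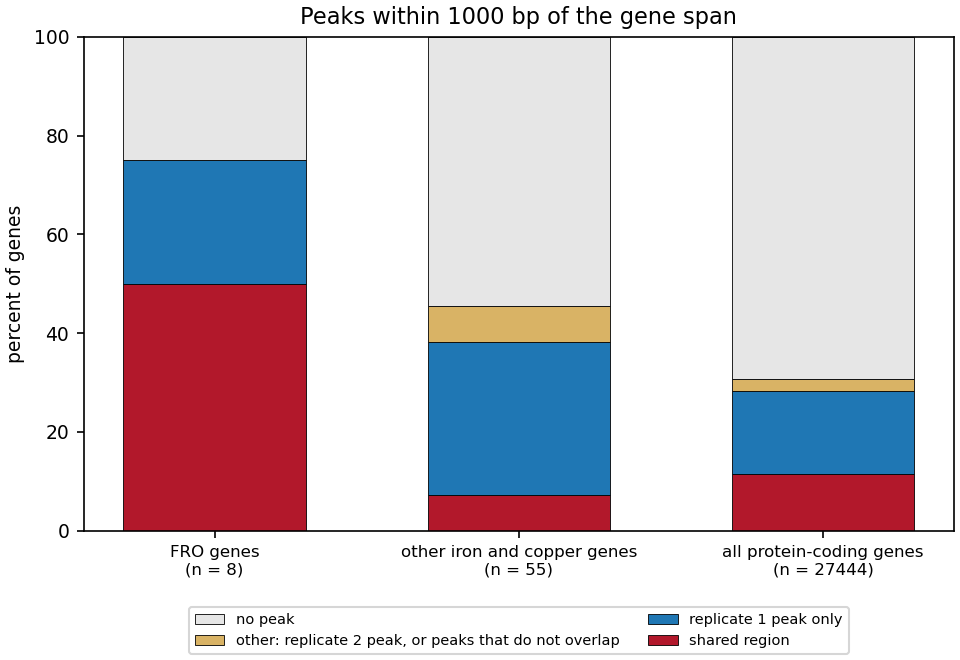
Percent of genes (vertical axis) by the peaks within 1000 bp of the gene span, for the 8 FRO genes, 55 other iron and copper genes and all 27444 protein-coding genes. A shared region was present at 50% of the FRO genes, 7.27% of the other iron and copper genes and 11.5% of all genes; the FRO genes were chosen with their peaks known.

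The replicate 1 list held 9980 peaks and the replicate 2 list 4788, with a median fold of 2.58 and 2.47 and a median width of 349 and 295 bp. Peak lists carry no read totals, but summit reads could be recovered from the fold and p columns. If both replicates were scaled to the same control, which is not stated, the recovered depth of replicate 1 was 1.14 times that of replicate 2. A partner in the other list was found for 38.5% of replicate 1 peaks and 81.9% of replicate 2 peaks, which gave 3823 shared regions.

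The FRO loci took up 8 different peaks of the replicate 1 list and 5 of the replicate 2 list. Fold ranged from 2.51 to 4.41 in replicate 1, with a median of 3.24, and from 2.16 to 3.43 in replicate 2, with a median of 2.59. All 5 replicate 2 peaks had a partner in replicate 1, and 3 of the 8 replicate 1 peaks had none in replicate 2. The shared peaks formed 5 regions, since the gap between FRO2 and FRO1 holds 1 region that counts for both genes.

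**Figure D2:**
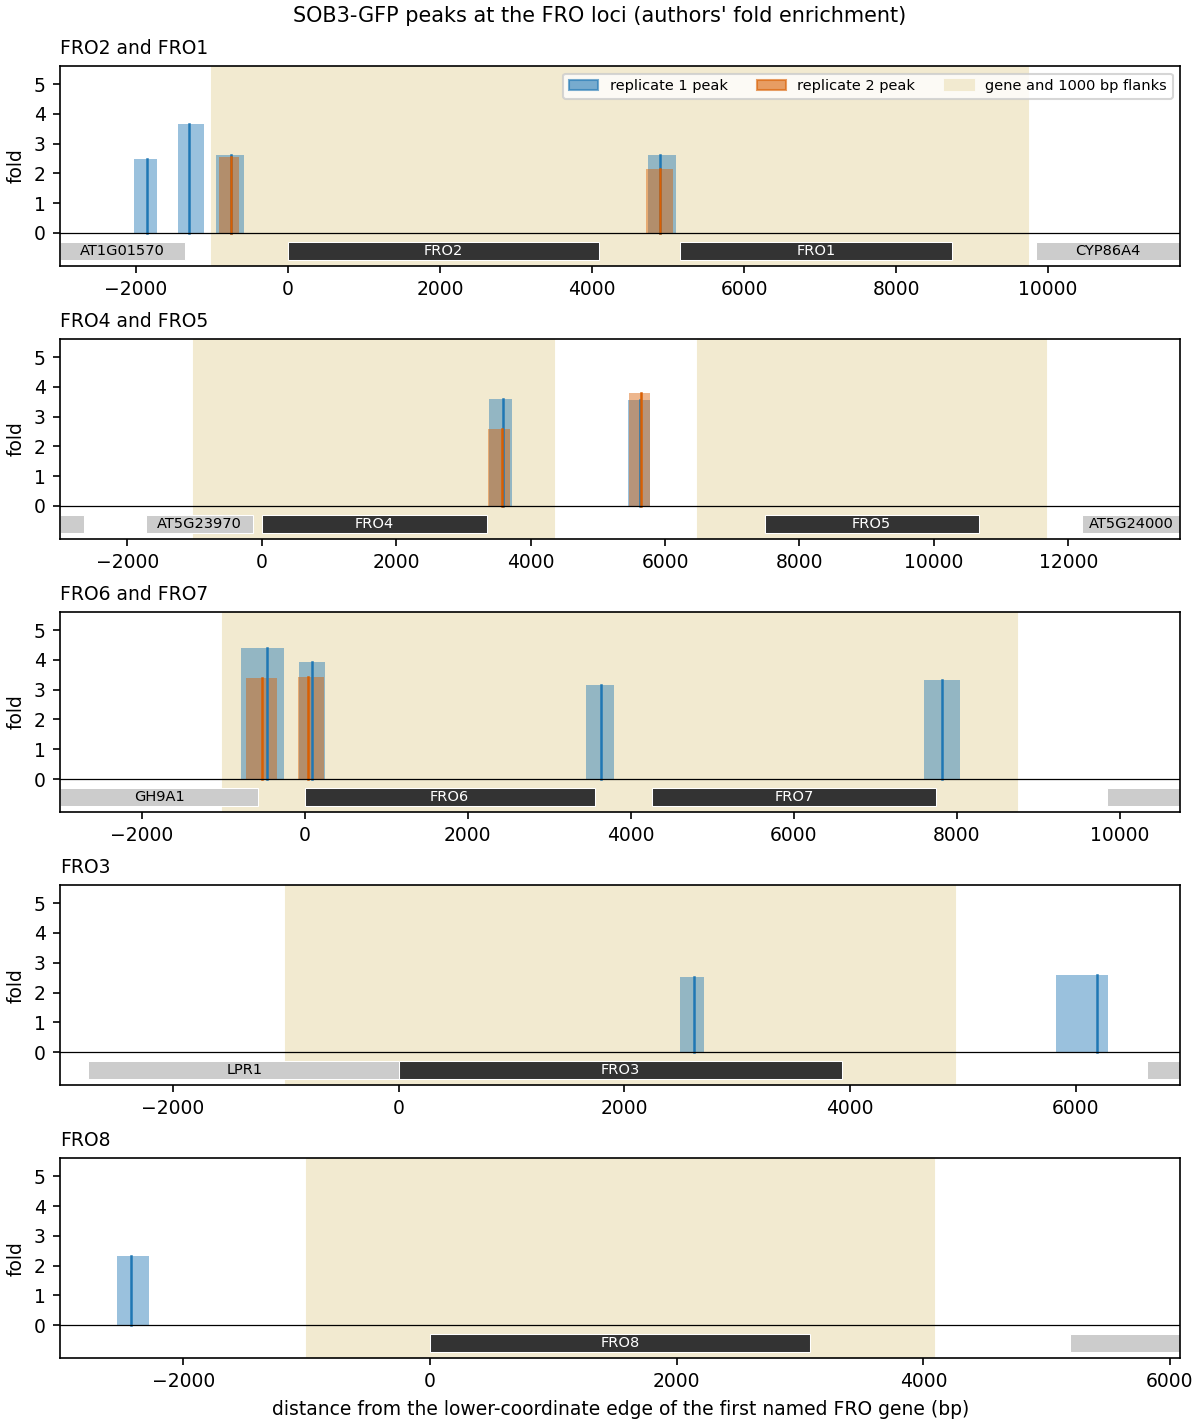
Peaks within 3000 bp of the FRO genes, with distance in bp from the lower-coordinate edge of the first gene named in each panel on the horizontal axis and the authors' fold enrichment on the vertical axis. Dark boxes are FRO genes, grey boxes are neighbouring protein-coding genes, shading marks the gene spans with 1000 bp flanks, and lines in the peaks are summits. FRO6 has peaks of both replicates at its lower-coordinate edge, FRO7 has replicate 1 peaks only, and a region of both replicates lies between FRO4 and FRO5 outside the flanks of either gene.

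The genes of root iron uptake come first. FRO2 encodes the main ferric chelate reductase of the root surface, whose activity under iron deficiency precedes uptake by the transporter IRT1. One region lay outside the gene on its lower-coordinate side, on chromosome 1 from 208043 to 208412 (TAIR10), and its folds were 2.63 (replicate 1) and 2.55 (replicate 2). Its replicate 1 summit was 755 bp from FRO2 and 598 bp from the neighbouring AT1G01570, so the neighbour was nearer. The summits of the replicates lay 5 bp apart. Both folds were just above the median of their lists, with 53.1% of replicate 1 peaks and 56.3% of replicate 2 peaks lower.

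FRO1 is the tandem neighbour of FRO2, and the 2 genes are separated by 1067 bp with no other annotated gene between them. The gap held the region on chromosome 1 from 213707 to 214100, and its folds were 2.63 (replicate 1) and 2.16 (replicate 2). The replicate 1 summit lay 259 bp from FRO1 and 809 bp from FRO2. Which of the pair the region belongs to cannot be told from its position. It was the weakest FRO region, with a lower fold in only 24.1% of all shared regions when each is ranked by the smaller fold of its replicates. Its control value was the highest at any shared FRO region, 29.0 in replicate 1 and 28.0 in replicate 2.

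Just outside the window of FRO2, at 1301 bp, lay a replicate 1 peak with a fold of 3.65, above both replicate 1 peaks assigned to FRO2. It was much nearer to AT1G01570, at 52 bp. A weaker replicate 1 peak, with a fold of 2.49, lay farther out at 1856 bp, inside AT1G01570. Neither overlapped a replicate 2 peak.

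FRO4 and FRO5 reduce copper at the root surface when copper is scarce, and both are known targets of the copper regulator SPL7. Their spans are 4130 bp apart, and no annotated gene lies between them. FRO4 had the region on chromosome 5 from 8101349 to 8101703, and its folds were 3.61 (replicate 1) and 2.59 (replicate 2), with a mean of 3.099 ± 0.723 (SD, n = 2). The summits lay 241 bp and 218 bp outside the gene, in replicate 1 and replicate 2. In replicate 1 the peak stood above 87.2% of the list, and in replicate 2 above 59.2%.

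FRO5 had no peak within 1000 bp in either list. The nearest signal was a second region in the gap, on chromosome 5 from 8103427 to 8103758, and its folds were 3.58 (replicate 1) and 3.78 (replicate 2), with a mean of 3.68 ± 0.146 (SD, n = 2). Its replicate 1 summit was 1851 bp from FRO5 and 2280 bp from FRO4, beyond the window of both. Of the 6 shared regions within 3000 bp of a FRO gene it had the highest smaller fold, ranking 148 of 3823 by that value. It was also the one of the 6 in which replicate 2 was the higher replicate. With flanks of 2000 bp this region was assigned to FRO5, and 5 FRO loci then had a shared region, as did 16.1% of all protein-coding genes.

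FRO6 and FRO7 are the members known from green tissue. FRO6 is a plasma membrane reductase of leaves and FRO7 the ferric reductase of the chloroplast. FRO6 had 2 shared regions at its lower-coordinate edge. The outer one, on chromosome 5 from 20200260 to 20200788, reached a fold of 4.41 in replicate 1, against 3.41 in replicate 2 (mean 3.91 ± 0.705, SD, n = 2). The inner one, from 20200957 to 20201281, reached a fold of 3.92 in replicate 1, against 3.43 in replicate 2 (mean 3.67 ± 0.343, SD, n = 2). Both ranked high among shared regions by the smaller fold, at 216 and 204 of 3823.

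The inner FRO6 region was the only shared FRO region with its summit inside the gene span, 95 bp from the lower-coordinate edge in replicate 1 and 44 bp in replicate 2. Among all 3823 shared regions, 17.3% had the summit inside a protein-coding gene and 51.1% outside within 1000 bp. The outer region had its summit in the 568 bp between FRO6 and GH9A1 (AT5G49720), which encodes the membrane endoglucanase KORRIGAN of cellulose synthesis. Its replicate 1 summit was 108 bp from GH9A1 and 461 bp from FRO6, and both regions are within reach of both genes. Another peak at FRO6 stood in replicate 1 alone, 77 bp beyond the other edge, with a fold of 3.16. Of all protein-coding genes, 1.1% had at least 3 replicate 1 peaks in reach and 0.907% at least 2 shared regions. FRO2 also had 2 shared regions in reach. Nothing is read from these shares either, because the family was chosen with its peaks known.

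FRO7 follows FRO6 after a gap of 706 bp, and the FRO6 peak in that gap, on chromosome 5 from 20204486 to 20204833, is also within reach of FRO7, at 630 bp. A second replicate 1 peak, from 20208639 to 20209075, lay 80 bp beyond the far edge of FRO7 with a fold of 3.32. Neither had a replicate 2 partner, and the nearest replicate 2 summit was 4221 bp from the gene. These were not weak peaks of their list, since 76.9% and 81.2% of replicate 1 peaks had a lower fold. Of the replicate 1 peaks in the same decile of −log10 q, 59.1% overlapped a replicate 2 peak.

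FRO3 and FRO8 are the members assigned to mitochondria. FRO3 had a single replicate 1 peak on chromosome 1 from 8152359 to 8152578, inside the gene and 1307 bp from its higher-coordinate edge. Its fold of 2.51 was the lowest of the replicate 1 peaks at FRO loci, and 45.5% of the list was lower. At 220 bp it was also the narrowest. In its decile of −log10 q, 29.0% of replicate 1 peaks had a partner in replicate 2. The gene LPR1, a ferroxidase gene whose span overlaps the end of FRO3, lay too far from this summit to be assigned.

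FRO8 had no peak in reach. The nearest summit in replicate 1 was 2423 bp away with a fold of 2.31, and the nearest in replicate 2 was 7647 bp away. FRO8 had the shortest span of the family.

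**Figure D3:**
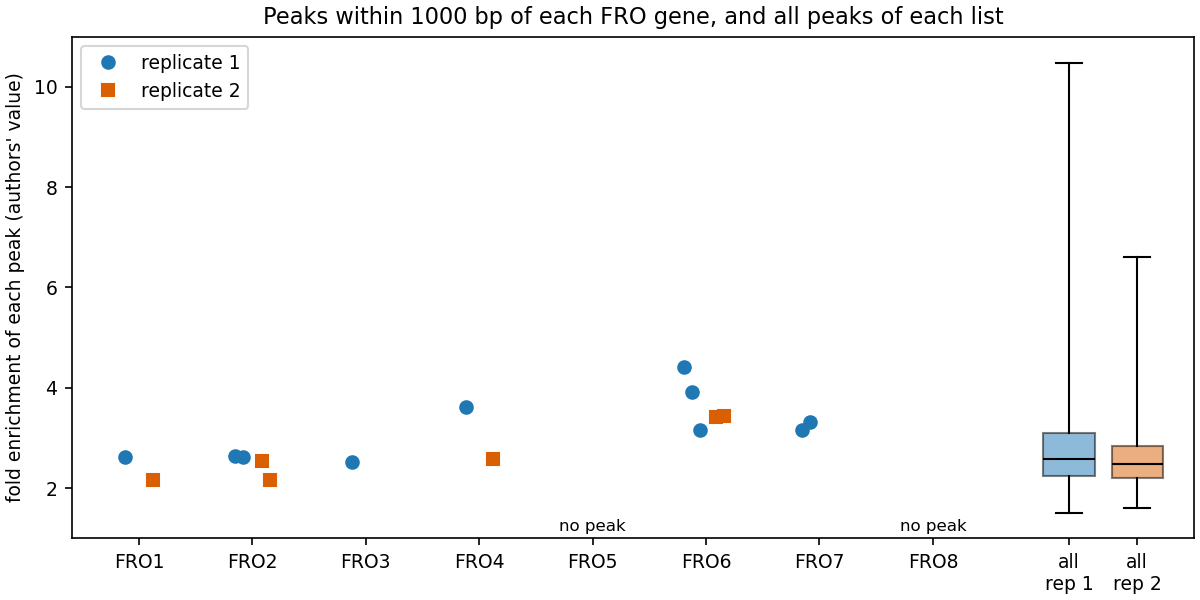
Fold enrichment of every peak assigned to each FRO gene (vertical axis, the authors' linear ratio), with circles for replicate 1 and squares for replicate 2. A peak in reach of 2 genes is drawn at both, and the replicate 2 peaks of FRO6 nearly coincide at 3.41 and 3.43. Boxes at the right give the median, quartiles and full range of all 9980 replicate 1 and 4788 replicate 2 peaks; the FRO peaks lie between 2.16 and 4.41.

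The reads behind these folds were modest. At the outer FRO6 region 121 reads were recovered at the summit in replicate 1 (exact Poisson 95% interval 100.4 to 144.6) and 86 in replicate 2 (68.8 to 106.2). At FRO4 the numbers were 100 in replicate 1 (81.4 to 121.6) and 65 in replicate 2 (50.2 to 82.8). In the FRO2-FRO1 gap they were 108 (88.6 to 130.4) and 75 (58.99 to 94.0). These intervals cover counting error only, since each is a Poisson interval on the count of a single library. The reads carry no molecular identifiers, so copied reads are not accounted for. The FRO3 peak rested on 56 reads over a control value of 15.4, and the FRO7 peak at the far edge on 114 reads over 24.0. In replicate 1 the control at FRO3 and at the inner FRO6 region was the identical value, 15.4373. Whether this value reflects local input reads was not tested.

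Once the reads were scaled to the control, as the caller had done, replicate 1 exceeded replicate 2 at 5 of the 6 shared regions. The ratio of scaled summit signal was 1.35 at FRO4, 1.26 in the FRO2-FRO1 gap, 1.23 and 1.17 at the outer and inner FRO6 regions, 1.083 on the outer side of FRO2 and 0.977 in the FRO4-FRO5 gap. The Poisson intervals of the replicates overlapped at all 6, which were kept because both lists had a peak there. Over all shared regions, fold was higher in replicate 1 in 67.4%. The control values of the replicates were close at each region, from 15.4 to 29.0 in replicate 1 and from 15.1 to 28.0 in replicate 2. With 1 Input library in the series, both may rest on the same reads, so their closeness does not show agreement between replicates.

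**Figure D4:**
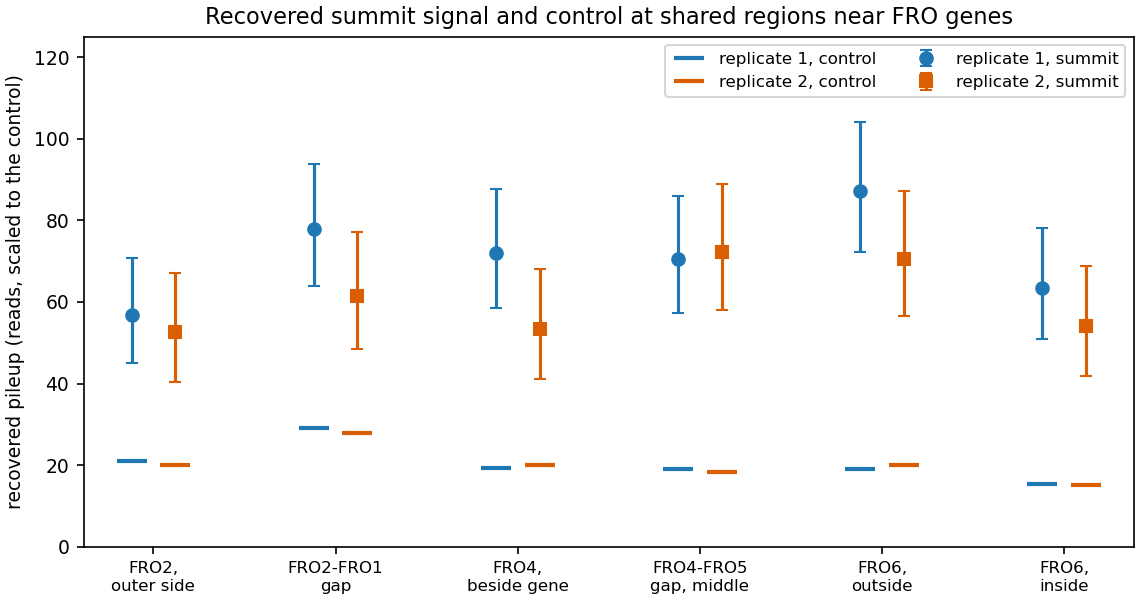
Recovered summit pileup (vertical axis, reads scaled to the control) at the 6 shared regions within 3000 bp of a FRO gene. Points are the replicates with exact Poisson 95% intervals for counting error, and dashes are the control values at the same summits. Intervals of the 2 replicates overlap at every region. Each region was called as a peak in both replicates, so a summit above its control is given by the selection. Peaks found in replicate 1 alone are not drawn.

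The other genes of iron and copper supply give a setting for the family. A list of 55 loci held 24 regulators, 8 genes of uptake at the root surface, 11 of chelation and long-distance movement, 10 of storage and organelles and 2 of copper supply. A shared region lay at 4 of the 55 genes (7.27%, against 11.5% of all protein-coding genes). A replicate 1 peak lay at 23 (41.8%, against 28.7%) and a replicate 2 peak at 8 (14.5%, against 13.7%). The median of the smaller fold over the 4 genes was 2.79, and over all genes with a shared region it was 2.44.

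Of the 24 regulators, 3 had a shared region (12.5%, against 11.5% of all protein-coding genes). FRU (AT2G28160), also called FIT, is the bHLH factor that activates FRO2 and IRT1 under iron deficiency, and its region on chromosome 2 from 12004331 to 12004669 reached a fold of 3.905 in replicate 1, against 2.56 in replicate 2. PYE (AT3G47640), a bHLH repressor of the iron deficiency response, carried its region inside the gene on chromosome 3 from 17567115 to 17567703, with folds of 3.901 and 3.63. The summit at NAI1 (AT2G22770), the bHLH factor of ER body formation, was 951 bp away, with 2.38 and 2.16.

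Among the 8 uptake genes, 1 had a shared region (12.5%, against 11.5% of all protein-coding genes). This was CYP82C4 (AT4G31940), with folds of 4.09 (replicate 1) and 3.02 (replicate 2). CYP82C4 encodes a cytochrome P450 of the coumarins that roots secrete to mobilise iron. IRT1, IRT2, the 2 copper genes SPL7 and COPT2, and the genes bHLH38 and bHLH39, whose products pair with FRU, had no peak in either list. The same held for 54.5% of the 55 listed genes and 69.3% of all protein-coding genes. None of the genes of chelation, long-distance movement, storage or organelles had a shared region. A replicate 1 peak lay at 36.4% of the chelation and movement genes and 40% of the storage and organelle genes (28.7% of all genes). For replicate 2 the shares were 18.2% and 0%, against 13.7%.

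**Figure D5:**
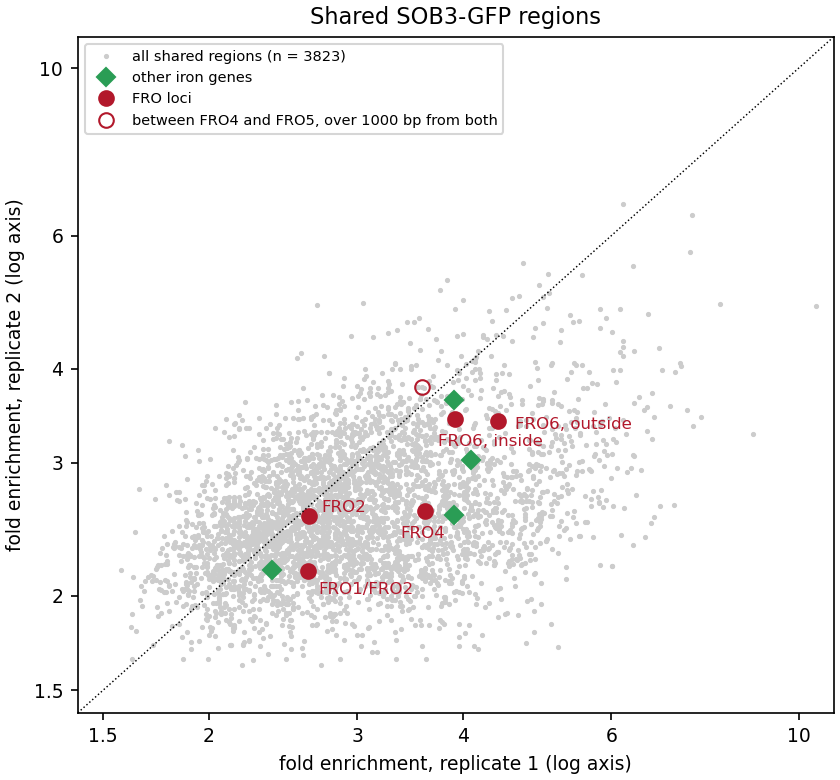
Fold enrichment in replicate 1 (horizontal, log axis) and replicate 2 (vertical, log axis) of all 3823 shared regions in grey, with FRO regions as filled red circles, the FRO4-FRO5 gap region as an open circle and the 4 other iron genes as green diamonds. The FRO6 regions lie above 3.4 in both replicates, and the FRO1/FRO2 gap region lies lowest in replicate 2 at 2.16; the dotted line marks equal folds.

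Among the FRO genes, the order by smaller fold was FRO6 (3.43), FRO4 (2.59), FRO2 (2.55) and FRO1 (2.16). FRO4 and FRO2 differ by less than the gap between the replicates of FRO4. FRO6 stood above 94.5% of the 3155 genes with a shared region and FRO1 above 22.4%. GH9A1 has the same folds as FRO6, since both take them from the inner region. Leaving out GH9A1 for that reason, the genes nearest to FRO6 in the log2 folds of both replicates were AT1G21590 and PTAC6, which share 1 region (3.86 and 3.38), UGT74E2 and BT3, which share another (3.96 and 3.33), and SPP1 (3.79 and 3.51). This likeness rests on 2 replicates alone, and 20 genes, these 5 included, lay within 0.1 of FRO6 on the log2 scale.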

How the data were processed

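The submitters' processing notes name bcl2fastq, Bowtie 0.12.9, MACS2 and the build TAIR10. The version, control and threshold of MACS2 are not given in the sources consulted. Each ChIP replicate had its own deposited peak list, and the input library was not analysed here. The fold is the authors' linear ratio. The −log10 p and −log10 q columns are the authors' as well, with a lowest −log10 q of 1.33 and 1.305. The deposited score column is 10 times the −log10 q cut to a whole number, in 100% of peaks, and was not used further.

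Gene spans came from a RefSeq table of assembly TAIR10.1, whose nuclear chromosomes are taken to have TAIR10 coordinates; none of its coordinates are printed. All 8 FRO loci and all 55 listed loci matched. The table has no strand, exons or sequence, so edges are named by coordinate, and the planned promoter and protein descriptions were not made. Shared regions joined peaks overlapping by at least 1 bp, and took their summit from the strongest replicate 1 peak.

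Summit pileup and control were solved from fold and p with the MACS2 formulas (pseudocount 1, control at least 1). For 100% of peaks the pileup came out as a whole multiple, within 0.02, of 0.7200 (replicate 1) or 0.821 (replicate 2). Where several solutions existed (83.5% and 90.0% of peaks) the one nearest to a whole multiple was taken, which favours such multiples. No test between groups was possible with 1 ChIP group. Members, the iron list and the rules for named genes (all members, every listed gene with a shared region, the 5 genes most like the strongest member, without those that share its region) were chosen with earlier results of these data known; others named, here and in the closing section, were chosen after their values were seen. Python 3.11.15, pandas 2.3.3, numpy 2.4.6 and scipy 1.17.1 were used.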

Additional observations from a re-analysis of the deposited data

How the results depend on the processing

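No paired analysis was possible because the replicate numbers occur in a single ChIP group. The 4 FRO loci with a shared region became 2 with flanks of 250 bp (FRO4 and FRO6), 1 with −log10 q of at least 10 and 1 with the top 1000 peaks of each list (FRO6 in both). With either replicate left out no shared region can form, so genes with any peak of the remaining list were counted. This gave 4 to 6 FRO loci, 8 to 23 listed iron and copper genes and 3763 to 7888 protein-coding genes (13.7% to 28.7%). The 4 listed genes became 2 with flanks of 250 bp, 2 with 500 bp and 11 with 2000 bp. They became 1 at −log10 q of at least 10 and 0 with the top 1000 peaks. In the same order, the shares of all protein-coding genes were 5.65%, 8.11%, 16.1%, 1.85% and 0.98%. With flanks of 500 bp, 3 FRO loci had a shared region (FRO1, FRO4 and FRO6). The 3155 protein-coding genes became 1551 with flanks of 250 bp, 508 at −log10 q of at least 10 and 269 with the top 1000 peaks. A reciprocal overlap of 50% kept FRO1, FRO2, FRO4 and FRO6, and 2643 protein-coding genes (9.63%) then had a shared region. Taking any base of a peak kept the same 4 loci, with 3508 protein-coding genes (12.8%). When each summit counted for its nearest gene alone, FRO2 was lost and 3 loci were left, while all protein-coding genes with a shared region numbered 2431 (8.86%, against 11.5%). Peak lists show no signal below the caller's threshold, so a locus without a peak is not shown to be unbound.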

Other observations

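Many of the 55 listed iron and copper genes had peaks in a single list. A peak in replicate 1 alone lay at 17 of them (30.9%, against 16.9% of all protein-coding genes). Of these, NRAMP1, a manganese and iron transporter of the root surface, had peaks up to a fold of 4.37, and the regulator gene bHLH34 had peaks up to 3.96. In replicate 2 alone, ABCG37, which exports coumarins from roots, had a peak with a fold of 3.07 and IREG2, a metal transporter of the vacuole, one with 2.29. At YSL2 (2.62 in replicate 1 and 2.11 in replicate 2) and AT2G30766 (2.66 and 2.28) each list had a peak, but the 2 did not form a shared region with its summit in reach. These genes were chosen after their values were seen.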
